A study of Mus musculus with 9 samples.

Results

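The genes described here belong to the bone morphogenetic protein (BMP) pathway: the receptor genes Bmpr1a, Bmpr2 and Acvrl1, the pseudoreceptor gene Bambi, the signal-carrying Smad1 and Smad5, the inhibitory Smad6, and the target genes Id1, Id2 and Id3. They were chosen by symbol, as the probe sets that the array's annotation assigns to 1 of these symbols alone. They make up 10 of the 17097 genes measured and 17 of the 28898 probe sets with a single symbol. Where a gene had several probe sets, the one with the highest mean over the 9 arrays stood for it.

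The study asked which genes of murine microglia respond to factors secreted by human glioma cells. Microglia were shaken off glial cultures grown from the cortices of newborn C57BL/6J mice, 0 to 2 days old, and seeded 48 h before treatment. GCM LN18 (n = 3) and GCM U87-MG (n = 3) were microglia kept for 6 h in medium conditioned by LN18 or U87-MG cells, each a single established human glioblastoma line, and control microglia (n = 3) received no GCM. The methods state for experiments in general that repeats used independent cultures or passages, and the sample titles give only the replicate number. The sources used here do not say whether a replicate number marks the same culture in all 3 groups. Nor do they say whether the controls had their medium changed.

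BMPs are secreted ligands that bring together type I and type II receptor kinases at the cell surface. The active type I receptor phosphorylates Smad1 or Smad5, which enter the nucleus with Smad4 and switch on target genes. The Id genes and Smad6 are among the best known of these targets in many cell types. Id proteins bind E proteins and keep them from DNA, while Smad6 and Bambi act back on the pathway as inhibitors. The pathway is a branch of the TGFβ superfamily, and TGFβ itself signals mainly through other Smads.

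Each array gave log2 signals that the authors had normalised, with array medians between 3.39 and 3.41 and a median over genes of 4.34. Arrays have no read depth, so the number of arrays limits the precision. Of 9 measured microglia markers 5 were higher with GCM LN18 and 2 with GCM U87-MG at an adjusted p under 0.05, where 2.59% and 0.807% of all genes were called higher. With the replicate number as a block 2 of these calls held in GCM LN18 (Cx3cr1 and Tmem119) and 1 in GCM U87-MG (Cx3cr1), and the calls that ended were Aif1 (blocked adjusted p = 0.104), C1qa (0.226) and Fcrls (0.106) in GCM LN18 and Fcrls (0.0838) in GCM U87-MG. The markers' summed linear signal was 9936 to 10161 in GCM LN18, 9385 to 10029 in GCM U87-MG and 7717 to 8186 in control microglia. The part of these changes in the results below was not tested. Cx3cr1 averaged 11.26 in GCM LN18, 11.06 in GCM U87-MG and 10.28 in control microglia, while the defining markers P2ry12 (3.81, 3.71 and 3.44 in the same order of groups) and Tmem119 (4.79, 4.18 and 3.88) were far dimmer. In bulk RNA, fewer cells of a type and less RNA per cell cannot be told apart.

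For every probe set, the mean of the 3 arrays that share a replicate number was the same for all 3 numbers within 1e-06, as values are after each number's mean has been removed. A low control array then goes with high GCM arrays of the same number. Whether the control or the GCM arrays of a number moved cannot be told apart, but the differences between arrays of 1 number keep their size. Leaving out 1 array alone keeps the other arrays of its number, which were centred with it, so the result is not free of that array. Tests were limma fits with 1 mean per group, adjusted by the Benjamini-Hochberg method over 17097 genes and called at an adjusted p under 0.05. With the replicate number as a block the residual degrees of freedom fall to 4, against 6 without it, and the adjusted p of that fit is given as blocked beside each call that it ends. The confidence intervals, p-values and calls are those of the fit without the block unless the block is named. That fit does not count the removed means, so its intervals are too narrow and its p-values tend to be too small. Its counts of calls, also over all genes, are then too high. With the block 150 genes were called in GCM LN18, against 894 without it, and 8 in GCM U87-MG, against 259. For the 10 genes the blocked intervals were 1.08 to 1.39 times as wide. Every adjusted p below is limma's.

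Of the 10 genes, Acvrl1 and Bambi were higher in GCM LN18 than in control microglia and 0 were lower by limma, in a comparison where 5.23% of all genes were called and 2.59% were called higher. At an unadjusted p under 0.05 there were 5 of the 10, against 20.6% of all genes, and with the block 2 (Acvrl1 and Bambi), against 12.2%. With the replicate block 0 of the 10 were called by limma, against 0.877% of all genes. In GCM U87-MG 0 of the 10 were called by limma, where 1.51% of all genes were called (0.0468% with the block), and 3 of the 10 had an unadjusted p under 0.05, against 17% of all genes (3 and 9.12% with the block). Between GCM LN18 and GCM U87-MG 0 of the 10 were called by limma, against 0.00585% of all genes (0% with the block), and 2 of the 10 had an unadjusted p under 0.05, against 12% of all genes (2 and 5.06% with the block). The median log2 fold change of the 10 was 0.31 with GCM LN18 and 0.16 with GCM U87-MG, with 8 of 10 above 0 in each medium, while the median over all genes was -0.00 in both. Replicate number 2 carried much of this summary. Without its 3 arrays the median was 0.03 with GCM LN18, with 5 of 10 above 0, and 0.08 with GCM U87-MG, with 7 of 10 above 0, and without control replicate 2 alone it was 0.10 and 0.12. Both comparisons use the same control arrays.

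**Figure D1:**
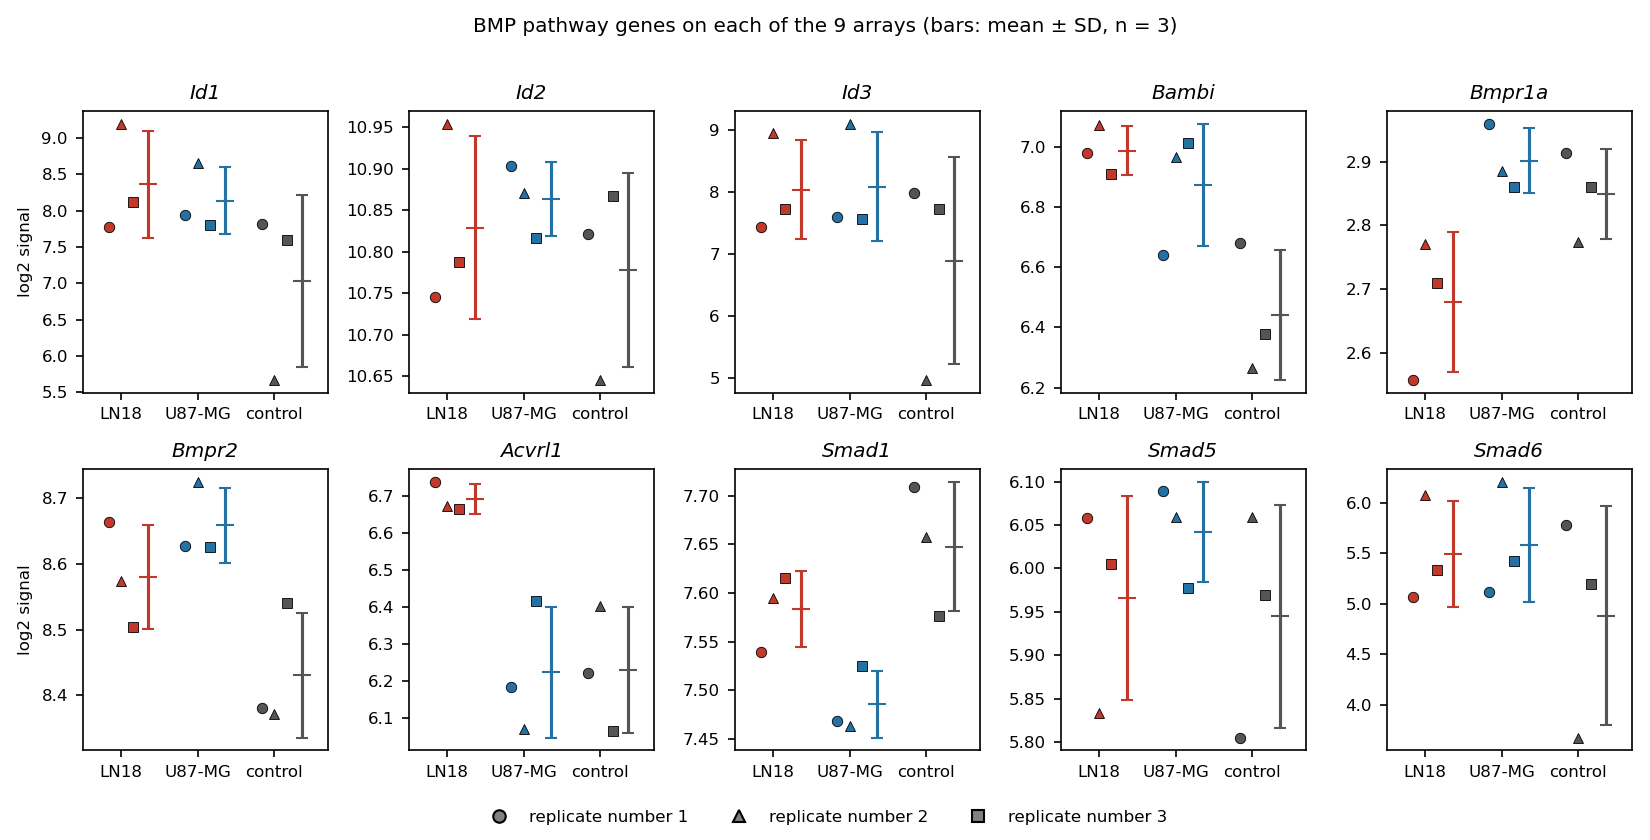
Log2 signal (vertical axes, scaled to each gene) of the 10 genes on each of the 9 arrays, in GCM LN18 (red), GCM U87-MG (blue) and control microglia (grey), with the replicate number as the symbol and bars for the mean ± SD (n = 3). The control array of number 2 lies far below the other 8 for Id1, Id3 and Smad6, and the 3 GCM LN18 arrays lie above all others for Acvrl1.

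The receptor genes differed most between the media at Acvrl1, which encodes ALK1, a type I receptor best known from endothelium, where it binds BMP9 and BMP10. Its log2 signal (chromosome 15) was 6.74, 6.67 and 6.66 with GCM LN18, 6.18, 6.07 and 6.42 with GCM U87-MG, and 6.22, 6.40 and 6.06 in control microglia. The 3 GCM LN18 arrays lay above all 6 others, and the GCM U87-MG and control arrays overlapped. In GCM LN18 Acvrl1 rose by 0.46 as log2 signal (1.38-fold, 95% confidence interval 0.24 to 0.69, adjusted p = 0.0314, blocked 0.119). In GCM U87-MG the log2 fold change was -0.01 (95% confidence interval -0.23 to 0.22, adjusted p = 0.984). Set directly against each other, GCM LN18 was above GCM U87-MG by 0.47 (95% confidence interval 0.24 to 0.69), with an adjusted p of 0.166 and an unadjusted p of 0.00106, so this difference did not pass the test over all genes. Leaving out 1 array ended the call in GCM LN18 without GCM LN18 replicate 1 (adjusted p = 0.108), 2 (0.0960) or 3 (0.0837) and without control replicate 1 (0.0796) or 3 (0.0751).

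A second, dimmer probe set of Acvrl1 was also higher in GCM LN18. Its log2 signal averaged 4.49 ± 0.02 in GCM LN18, 4.37 ± 0.04 in GCM U87-MG and 4.25 ± 0.05 in control microglia (SD, n = 3 each). The log2 fold change was 0.25 in GCM LN18 (adjusted p = 0.0121 over all probe sets, blocked 0.126) and 0.12 in GCM U87-MG (adjusted p = 0.196). The probe sets thus share the direction in GCM LN18. In GCM U87-MG neither passed the test. There the brighter one was level with control (-0.01), and the dimmer one averaged between control and GCM LN18. Between the media the dimmer one differed by 0.13 (adjusted p = 0.293 over all probe sets), less than the 0.47 of the brighter one. Endothelial and mural cell markers, which mark the cells where Acvrl1 is best known, had 0 of 10 members called in either medium by limma (0 at an unadjusted p under 0.05 with GCM LN18 and 1 with GCM U87-MG). Their summed linear signal was 206 to 227 in GCM LN18, 200 to 248 in GCM U87-MG and 175 to 203 in control microglia. Cdh5, which defines endothelium, averaged 2.61, 2.62 and 2.55 in these groups, and Pecam1 averaged 2.76, 2.69 and 2.74, all below the median over genes. Flt1 (6.89, 6.98 and 6.62) and Kdr (5.29, 5.22 and 5.23) lay above that median, and Flt1 had the largest log2 fold changes of the 10 markers, 0.26 with GCM LN18 and 0.36 with GCM U87-MG. The part of these markers in the difference in Acvrl1 was not tested.

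Bmpr2, the type II receptor that binds most BMPs, was slightly above control microglia in GCM U87-MG without passing the test. Its log2 signal (chromosome 1) was 8.66, 8.57 and 8.50 with GCM LN18, 8.63, 8.73 and 8.63 with GCM U87-MG, and 8.38, 8.37 and 8.54 in control microglia. All 3 GCM U87-MG arrays lay above the control arrays, while 1 GCM LN18 array fell below the highest control array. The log2 fold change was 0.15 in GCM LN18 (95% confidence interval 0.01 to 0.29, or -0.02 to 0.32 with the block, adjusted p = 0.202) and 0.23 in GCM U87-MG (95% confidence interval 0.09 to 0.37, adjusted p = 0.109). The media differed by -0.08 (95% confidence interval -0.22 to 0.06, adjusted p = 0.629). The dimmer probe set of Bmpr2 had log2 fold changes of 0.27 and 0.32 in GCM LN18 and GCM U87-MG (adjusted p = 0.328 and 0.307).

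Bmpr1a encodes ALK3, a widely expressed type I receptor that pairs with BMPR2. Its only probe set (chromosome 14) stayed near the bottom of the scale on every array, reading 2.56, 2.77 and 2.71 with GCM LN18, 2.96, 2.89 and 2.86 with GCM U87-MG, and 2.91, 2.77 and 2.86 in control microglia. The GCM LN18 arrays lay below all others, the closest pair reading 2.77 on both sides. The log2 fold change was -0.17 in GCM LN18 (adjusted p = 0.159) and 0.05 in GCM U87-MG (adjusted p = 0.705), and the media differed by -0.22 (95% confidence interval -0.36 to -0.08, adjusted p = 0.235).

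Bambi resembles a type I receptor without a kinase and damps BMP and TGFβ signals, which can also induce it. Its log2 signal (chromosome 18) was 6.98, 7.07 and 6.91 with GCM LN18, 6.64, 6.96 and 7.01 with GCM U87-MG, and 6.68, 6.26 and 6.38 in control microglia. The GCM LN18 arrays lay above every control array, and 1 GCM U87-MG array was below the highest control array. In GCM LN18 Bambi rose by 0.55 (1.46-fold, 95% confidence interval 0.27 to 0.82, adjusted p = 0.0346, blocked 0.122). In GCM U87-MG the log2 fold change was 0.43 (95% confidence interval 0.16 to 0.70, adjusted p = 0.119). The media differed by 0.11 (95% confidence interval -0.16 to 0.39, adjusted p = 0.736). Leaving out 1 array ended the call in GCM LN18 without GCM LN18 replicate 1 (adjusted p = 0.102), 2 (0.123) or 3 (0.0771) and without control replicate 2 (0.0895) or 3 (0.0872).

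Within the replicate numbers, Bambi was above control by 0.30, 0.81 and 0.53 in GCM LN18, in numbers 1, 2 and 3, and by -0.04, 0.70 and 0.63 in GCM U87-MG. Acvrl1 was above control by 0.52, 0.27 and 0.60 in GCM LN18, and its differences in GCM U87-MG were -0.04, -0.33 and 0.35. For both genes every GCM LN18 array lay above every control array, so 3 of 3 positive numbers follow under any pairing and add nothing to that. The genes whose 9 values correlated most with Bambi were Tmem50b (Pearson's r = 0.985), Gm34166 (0.985) and Adra2c (0.983), and those most like Acvrl1 were Wipi1 (0.982), Prpsap2 (0.981) and Trim63 (0.980). These values describe 9 arrays that share their groups and their removed replicate means.

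**Figure D2:**
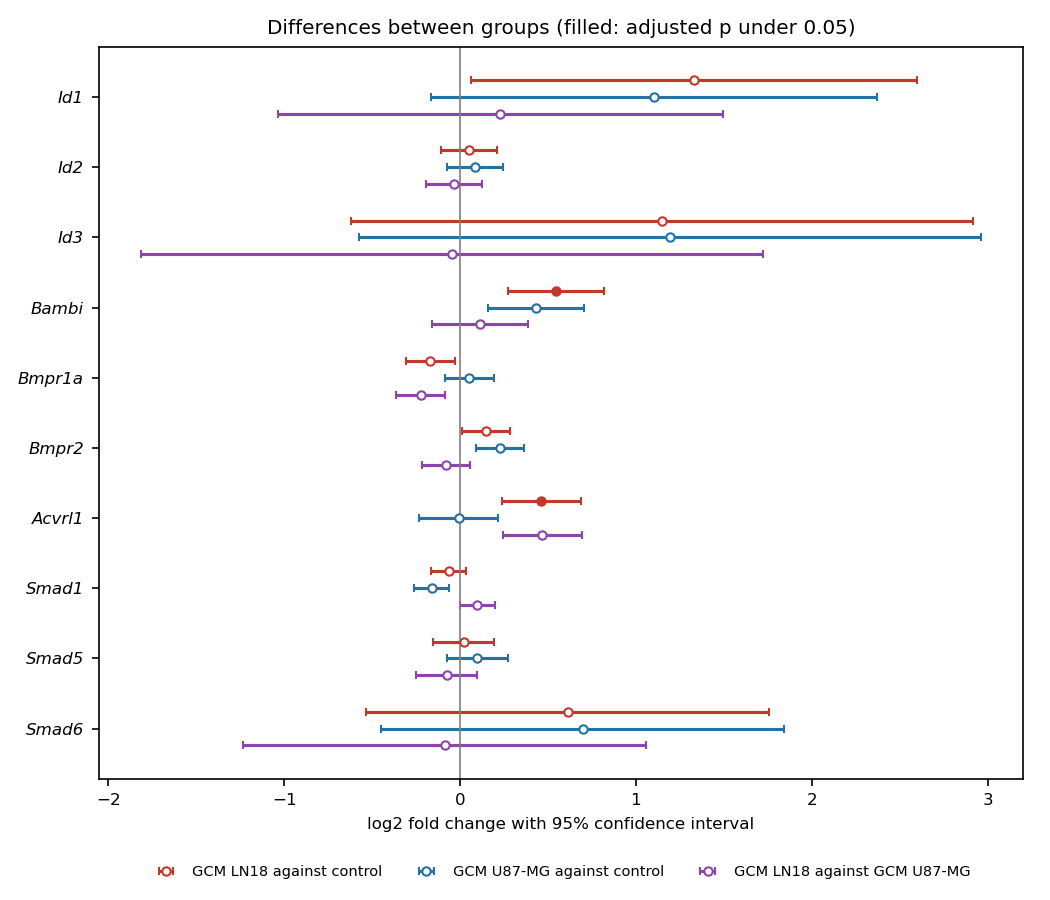
Log2 fold change (horizontal axis) of each gene for GCM LN18 against control (red), GCM U87-MG against control (blue) and GCM LN18 against GCM U87-MG (purple), with 95% confidence intervals from limma without the block and filled points at an adjusted p under 0.05. Only Acvrl1 and Bambi in GCM LN18 are filled, and the intervals of Id1, Id3 and Smad6 are the widest of the 10.

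The Smads that carry the signal, Smad1 and Smad5, showed small differences, and 0 of them were called by limma in either medium (1 at an unadjusted p under 0.05, Smad1 in GCM U87-MG). The log2 signal of Smad1 (chromosome 8) was 7.54, 7.60 and 7.62 with GCM LN18, 7.47, 7.46 and 7.52 with GCM U87-MG, and 7.71, 7.66 and 7.58 in control microglia. The GCM U87-MG arrays lay below the other 6. The log2 fold change was -0.06 in GCM LN18 (adjusted p = 0.458) and -0.16 in GCM U87-MG (95% confidence interval -0.26 to -0.06, adjusted p = 0.116). The second probe set of Smad1 did not share the difference in GCM U87-MG, with -0.00 there (adjusted p = 0.991) and 0.07 in GCM LN18.

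Smad5 (chromosome 13) read 6.06, 5.83 and 6.01 with GCM LN18, 6.09, 6.06 and 5.98 with GCM U87-MG, and 5.81, 6.06 and 5.97 in control microglia, and all 3 groups overlapped. Its log2 fold change was 0.02 in GCM LN18 (95% confidence interval -0.15 to 0.19, adjusted p = 0.911) and 0.10 in GCM U87-MG (95% confidence interval -0.08 to 0.27, adjusted p = 0.556). The other probe sets of Smad5 gave 0.10 and 0.06 in GCM LN18 and 0.29 and 0.09 in GCM U87-MG, with 0 called. Over the 10 genes, the groups did not overlap for 3 genes between GCM LN18 and control microglia (Bambi, Bmpr1a and Acvrl1, against 23.9% of all genes), for 2 between GCM U87-MG and control microglia (Bmpr2 and Smad1, against 19.1%) and for 3 between the media (Bmpr1a, Acvrl1 and Smad1, against 17.4%).

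Id1, Id3 and Smad6 followed another pattern, in which 1 replicate number held most of the difference between GCM and control microglia. The promoters of Smad6 and Id3, from 250 bases before to 50 after the RefSeq start in build GRCm38.p6, are shown because BMP-responsive genes often carry short Smad motifs, in capitals here, and that of Id2 is shown as the Id gene that did not share the pattern. Of the 10 genes, 7 have such a window in the table used, and Acvrl1, Bambi and Id1 are named only. Smad6 (chr9:64022010-64022309, minus strand) holds the palindrome GTCTAGAC, made of GTCT and its reverse complement AGAC, with its first base at -4 from the start. Id3 (chr4:136143572-136143871, plus strand) holds the Smad box GTCTG at -68 and its reverse complement CAGAC at -167. Id2 (chr12:25096043-25096342, minus strand) holds GGCGCC, a GC-rich Smad site and also a palindrome, at -231.
Smad6: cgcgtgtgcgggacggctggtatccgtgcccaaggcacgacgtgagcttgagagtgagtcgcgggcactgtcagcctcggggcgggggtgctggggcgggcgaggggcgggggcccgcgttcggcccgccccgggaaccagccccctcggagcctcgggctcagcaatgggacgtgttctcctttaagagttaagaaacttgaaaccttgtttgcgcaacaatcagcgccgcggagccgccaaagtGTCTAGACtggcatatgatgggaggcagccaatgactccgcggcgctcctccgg
Id3: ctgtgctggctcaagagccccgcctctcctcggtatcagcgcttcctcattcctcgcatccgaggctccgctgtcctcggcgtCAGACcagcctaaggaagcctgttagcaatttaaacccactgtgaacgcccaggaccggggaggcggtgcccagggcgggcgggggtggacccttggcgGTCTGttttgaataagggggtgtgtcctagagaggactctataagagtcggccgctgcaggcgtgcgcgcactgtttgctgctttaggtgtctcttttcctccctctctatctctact
Id2: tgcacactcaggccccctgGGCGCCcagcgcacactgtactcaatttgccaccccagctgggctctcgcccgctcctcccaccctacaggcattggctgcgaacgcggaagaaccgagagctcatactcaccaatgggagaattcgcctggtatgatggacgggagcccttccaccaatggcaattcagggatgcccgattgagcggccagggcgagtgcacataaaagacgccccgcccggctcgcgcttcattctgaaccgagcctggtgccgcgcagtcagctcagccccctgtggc

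Searched on both strands, GTCTAGAC stood in 0.213% of 32851 windows (70) and in 1 of the 7 genes, Smad6. GGCGCC stood in 11.9% of windows and in 4 of the 7, Bmpr1a, Bmpr2, Id2 and Smad5. GTCTG or CAGAC stood in 49.6% of windows and in 2 of the 7, Id3 and Smad5. The 7 genes have 9 windows, and a gene was counted if any of its windows held the match, so these gene counts and the shares of windows are in unlike units. The palindrome does not contain GTCTG or CAGAC, and a match describes letters in this window only.

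Id3, an inhibitor of E proteins and a direct BMP target in many cells, had a log2 signal (chromosome 4) of 7.44, 8.95 and 7.73 with GCM LN18, 7.59, 9.10 and 7.57 with GCM U87-MG, and 7.99, 4.97 and 7.72 in control microglia. The control array of number 2 was far below the other 8, which ran from 7.44 to 9.10, and the GCM arrays of number 2 were the highest. Within the numbers GCM LN18 was above control by -0.55, 3.99 and 0.01, and GCM U87-MG by -0.40, 4.14 and -0.16. The fitted log2 fold change was 1.15 in GCM LN18 (95% confidence interval -0.62 to 2.92, adjusted p = 0.451) and 1.19 in GCM U87-MG (95% confidence interval -0.58 to 2.96, adjusted p = 0.473). Without the 3 arrays of number 2 it turned to -0.27 and -0.28, and without control replicate 2 alone it was 0.18 and 0.23. The latter values keep the GCM arrays of number 2, which were centred with that control, here and for Id1 and Smad6 below.

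Id1 is a well known early target of BMP receptors such as ALK1. Its log2 signal (chromosome 2) was 7.77, 9.19 and 8.12 with GCM LN18, 7.94, 8.66 and 7.80 with GCM U87-MG, and 7.82, 5.67 and 7.60 in control microglia. The same control array was the lowest, against 7.60 to 9.19 on the other 8. Within the numbers the differences were -0.05, 3.52 and 0.52 in GCM LN18 and 0.12, 2.99 and 0.21 in GCM U87-MG. The fitted log2 fold change was 1.33 in GCM LN18 (2.52-fold, 95% confidence interval 0.06 to 2.60, or -0.04 to 2.71 with the block, adjusted p = 0.222) and 1.10 in GCM U87-MG (95% confidence interval -0.16 to 2.37, adjusted p = 0.353). Without control replicate 2 it was 0.65 and 0.42, and without all arrays of number 2 it was 0.24 and 0.16.

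Smad6 encodes the inhibitory Smad that BMP signals induce and that competes with Smad1 and Smad5. Its log2 signal (chromosome 9) was 5.07, 6.08 and 5.34 with GCM LN18, 5.12, 6.21 and 5.42 with GCM U87-MG, and 5.78, 3.68 and 5.20 in control microglia. The differences within the numbers were -0.71, 2.40 and 0.14 in GCM LN18 and -0.66, 2.53 and 0.22 in GCM U87-MG. Number 1 thus ran opposite to number 2 in both media. The fitted log2 fold change was 0.61 in GCM LN18 (95% confidence interval -0.53 to 1.76, adjusted p = 0.541) and 0.70 in GCM U87-MG (95% confidence interval -0.45 to 1.84, adjusted p = 0.522). Without the arrays of number 2 it was -0.28 and -0.22, and without control replicate 2 alone it was 0.01 and 0.10.

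**Figure D3:**
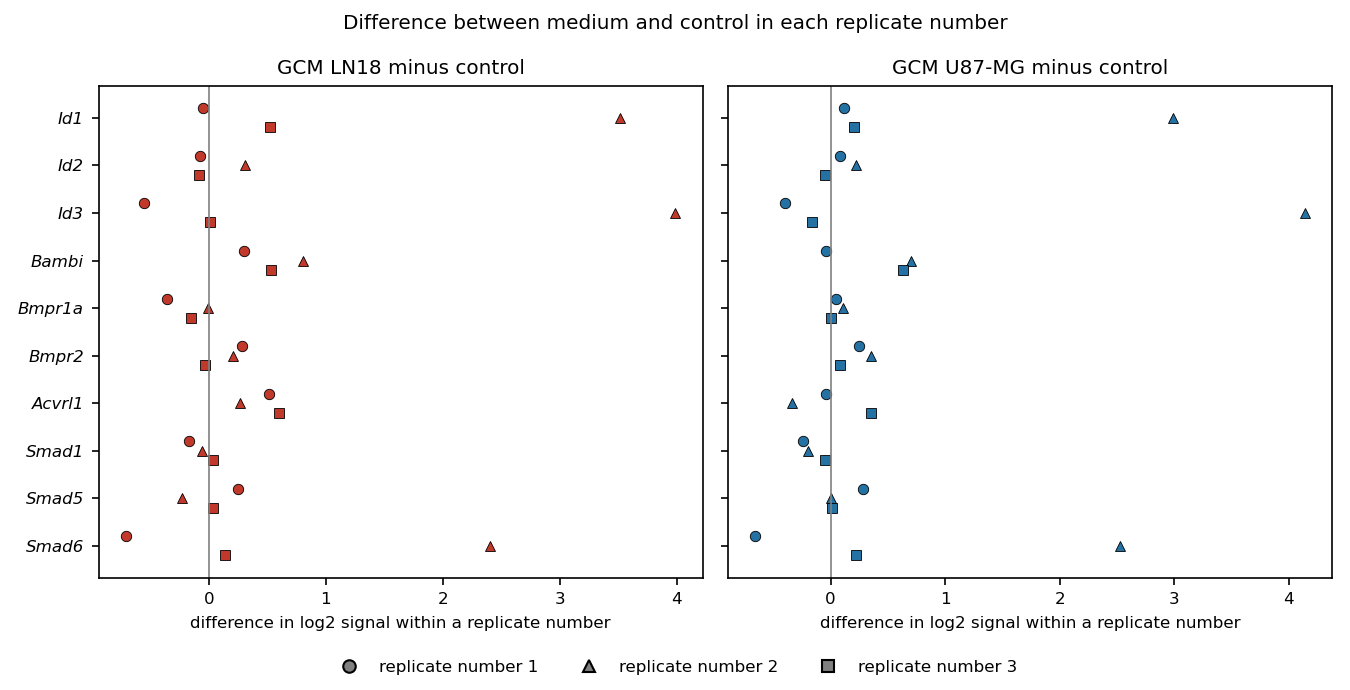
Difference in log2 signal between GCM LN18 (left) or GCM U87-MG (right) and the control array of the same replicate number (horizontal axes), with the number as the symbol. The triangles of number 2 lie between 2.40 and 4.14 for Id1, Id3 and Smad6 in both media, while numbers 1 and 3 lie between -0.71 and 0.52 for these genes.

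Between the media 0 of these 3 genes were called by limma (0 at an unadjusted p under 0.05). GCM LN18 minus GCM U87-MG was 0.23 for Id1 (95% confidence interval -1.04 to 1.49, adjusted p = 0.903), -0.05 for Id3 (95% confidence interval -1.82 to 1.72, adjusted p = 0.985) and -0.09 for Smad6 (95% confidence interval -1.23 to 1.06, adjusted p = 0.960). These intervals are wide enough to hold differences of over 2-fold either way. Their spread is pooled over all 3 groups, however, and so includes the low control array of number 2. Within numbers 1, 2 and 3, GCM LN18 minus GCM U87-MG was -0.17, 0.53 and 0.32 for Id1. It was -0.15, -0.15 and 0.17 for Id3, and -0.05, -0.13 and -0.08 for Smad6. Over the 9 arrays Pearson's r was 0.968 between Id1 and Id3, 0.938 between Id1 and Smad6 and 0.982 between Id3 and Smad6. Over the 6 arrays of numbers 1 and 3 it was 0.0635, 0.0903 and 0.827. The arrays share their groups and removed means, so these are descriptions.

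Few other genes on the array had a step of this size in number 2. Of 17097 genes, 4 were more than 2 log2 units above the control array in both media of number 2, namely Id3, Id1, Fabp7 and Smad6, and 0 were as far below it. In number 1 there were 2 higher (Ctla2b and Tgfbi) and 6 lower, and in number 3 there were 1 higher (Tgfbi) and 0 lower. At more than 1 log2 unit the counts were 17 higher and 6 lower in number 2, 25 and 45 in number 1, and 30 and 5 in number 3. Fabp7, a fatty acid binding protein of glial progenitors, was above control by 2.41 with GCM LN18 and 2.53 with GCM U87-MG in number 2, by 0.38 and 0.40 in number 1 and by 0.86 and 0.84 in number 3. Both media share 1 control array per number, and the thresholds and Fabp7 were chosen after their values were seen.

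**Figure D4:**
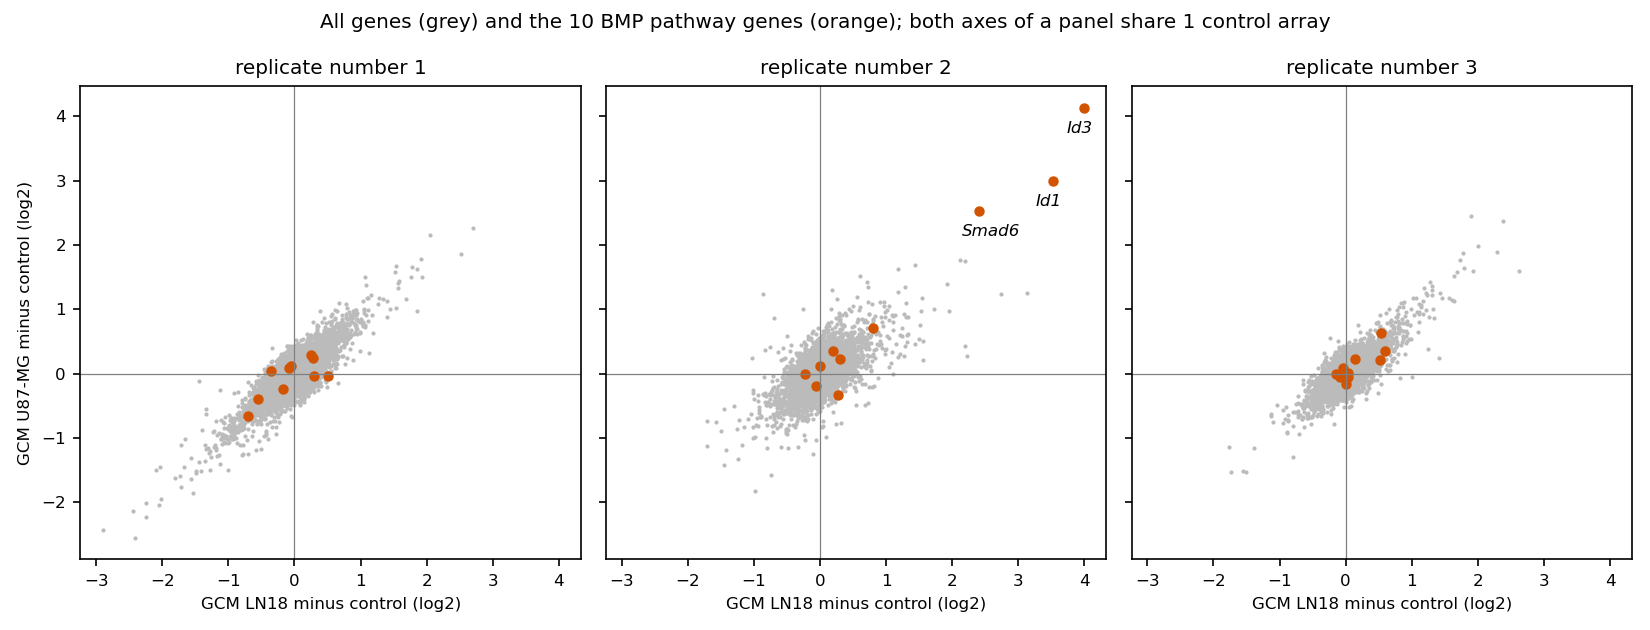
Difference in log2 signal between GCM LN18 and control (horizontal axes) and between GCM U87-MG and control (vertical axes) for all 17097 genes (grey) and the 10 BMP pathway genes (orange) in replicate numbers 1, 2 and 3. In number 2, Id3, Id1 and Smad6 stand at the upper end of all genes, with Fabp7 hidden behind Smad6. In the other panels the 10 genes lie within the cloud. Id3 and Smad6 are toward its lower end in number 1, and Bambi and Acvrl1 toward its upper end in number 3.

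The astrocyte and endothelial markers listed for the check were not among the 4 genes, but Fabp7, which is also expressed by astrocytes and is not on the list, was. In number 2 the summed linear signal of 10 astrocyte markers was 104 in GCM LN18, 107 in GCM U87-MG and 111 in control microglia, and that of 10 endothelial and mural cell markers was 206, 214 and 203. The summed astrocyte signal ran from 104 to 108 over the GCM LN18 arrays, 107 to 111 over GCM U87-MG and 103 to 111 over control microglia, with 0 of 10 markers called in either medium by limma (1 at an unadjusted p under 0.05 with GCM LN18 and 2 with GCM U87-MG). Gfap, which defines astrocytes, averaged 3.21, 3.27 and 3.32 in the 3 groups, and Aqp4 averaged 2.62, 2.66 and 2.67. Of the 10 astrocyte markers only Aldoc (4.99 in each group) averaged above the median over genes of 4.34. The astrocyte sum is thus made mostly of dim signals and may not show a change in astrocyte RNA. The same control array also had the lowest summed signal of the microglia markers, 7717. Its part in the step was not tested.

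Id2, which encodes the Id protein with the broadest roles in leukocyte development, did not share the step. Its log2 signal (chromosome 12) was 10.75, 10.95 and 10.79 with GCM LN18, 10.90, 10.87 and 10.82 with GCM U87-MG, and 10.82, 10.65 and 10.87 in control microglia. Control replicate 2 was again the lowest of the 9, but by a small margin, with the other 8 at 10.75 to 10.95. The log2 fold change was 0.05 in GCM LN18 (95% confidence interval -0.11 to 0.21, adjusted p = 0.734) and 0.09 in GCM U87-MG (95% confidence interval -0.07 to 0.24, adjusted p = 0.577). The other probe sets of Id2 gave 0.09 and 0.29 in GCM LN18 and 0.05 and -0.03 in GCM U87-MG, with 0 called.

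The rest of the pathway was read from 70 further genes listed by role, of which 64 were measured. By limma, 5 of them were called in GCM LN18, 4 up and 1 down (only Smad7 with the block), and 2 in GCM U87-MG, both up (0 with the block), against 5.23% and 1.51% of all genes. Their median log2 fold change was -0.01 with GCM LN18 and -0.00 with GCM U87-MG. Leaving out 1 array gave 1 to 7 calls in GCM LN18, with 1 when GCM LN18 replicate 2 or 3 or control replicate 3 was dropped, 2 when GCM LN18 replicate 1 was, and 3 when control replicate 1 or 2 was. In GCM U87-MG it gave 1 when GCM LN18 replicate 2 or 3 was dropped and 0 when any other array was.

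Of the 12 measured BMP ligands and the 16 measured antagonists and extracellular modulators, 0 were called in either medium by limma (1 and 2 at an unadjusted p under 0.05 in GCM LN18, and 1 and 1 in GCM U87-MG). The ligand Bmp10, which binds ALK1, had a log2 fold change of -0.11 in GCM U87-MG, and Gdf5, a ligand of joint development, had -0.10 in GCM LN18. Crim1, a membrane protein that binds BMPs, had -0.43 in GCM LN18 (adjusted p = 0.0707) and -0.20 in GCM U87-MG (adjusted p = 0.413). Neo1, which encodes neogenin, a receptor that works with BMP co-receptors, was the 1 lower gene of the 10 other receptors and co-receptors. It read 4.94, 5.06 and 5.06 in GCM LN18 and 5.29, 5.25 and 5.34 in control microglia, and it fell by 0.27 (adjusted p = 0.0264, blocked 0.144). Acvr1, which encodes the type I receptor ALK2, had log2 fold changes of 0.15 and 0.17 in GCM LN18 and GCM U87-MG (adjusted p = 0.0999 and 0.115).

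Among 10 other Smads and Smad regulators, the called genes were Smad7 and Skil. Smad7, an inhibitory Smad of both BMP and TGFβ receptors, read 6.01, 6.26 and 5.85 with GCM LN18, 5.81, 5.83 and 6.02 with GCM U87-MG, and 5.42, 5.16 and 5.37 in control microglia. Every GCM array lay above every control array, unlike for Smad6. Smad7 rose by 0.73 in GCM LN18, the 1 call of the pathway that the block kept (blocked adjusted p = 0.0446), and by 0.57 in GCM U87-MG (adjusted p = 0.0442, blocked 0.200). The paper also measured Smad7 by qRT-PCR in primary murine microglia given these media for the same time. It describes the Smad7 increase there as small and not significant, with large variation between biological repeats. It found no tested gene, Smad7 included, significantly upregulated by medium from LN18 cells. Skil, a repressor that binds Smads, read 9.31, 9.78 and 9.43 with GCM LN18, 9.14, 9.41 and 9.47 with GCM U87-MG, and 8.97, 8.23 and 8.52 in control microglia. Here too the GCM arrays lay above all control arrays. Skil had the largest log2 fold changes of the 64 other measured pathway genes. They were 0.93 in GCM LN18, where it was called (adjusted p = 0.0232, blocked 0.0837), and 0.77 in GCM U87-MG, where it was not. Ski, its close relative, had log2 fold changes of 0.28 and 0.21 (adjusted p = 0.0579 and 0.173).

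Of 13 other target genes, Hey1, a repressor induced by BMP and Notch signals, rose by 0.16 in GCM LN18 (adjusted p = 0.0328, blocked 0.255) and by 0.20 in GCM U87-MG (adjusted p = 0.0313, blocked 0.301). Nkx2-5, a transcription factor of heart development, rose by 0.19 in GCM LN18 (adjusted p = 0.0205, blocked 0.178) and had 0.16 in GCM U87-MG (adjusted p = 0.0813). Hey1 stayed between 4.35 and 4.43 on the GCM arrays and between 4.17 and 4.23 on the control arrays. Nkx2-5 stayed between 3.46 and 3.54 on the GCM arrays and between 3.29 and 3.37 on the control arrays. Both changes were small steps, in signals near the median over genes of 4.34 for Hey1 and below it for Nkx2-5. Vegfa, an angiogenic factor, had 0.47 in GCM LN18 (adjusted p = 0.198). Of the 3 E protein genes, which encode the partners of Id proteins, 0 were called by limma in either medium (1 at an unadjusted p under 0.05 in each), and Tcf4 had 0.25 in both media (adjusted p = 0.125 with GCM LN18 and 0.171 with GCM U87-MG).

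**Figure D5:**
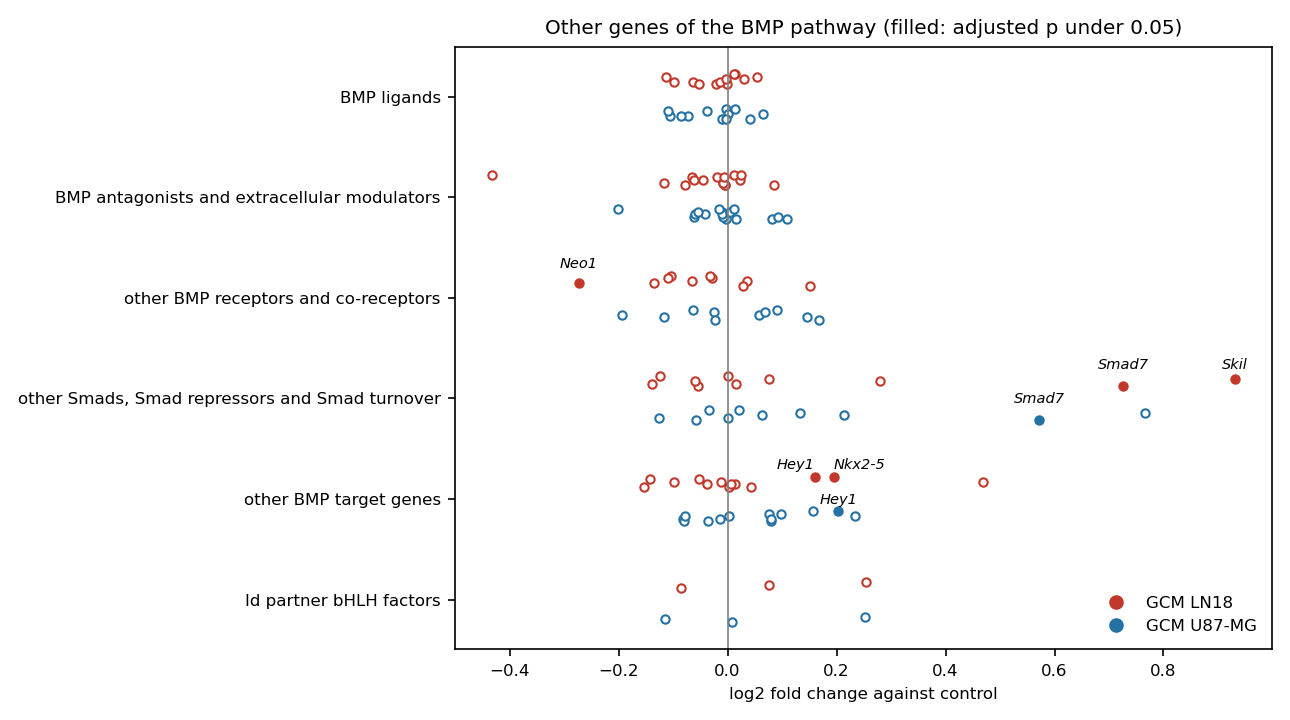
Log2 fold change against control microglia (horizontal axis) of the 64 other measured genes of the BMP pathway by role, in GCM LN18 (red) and GCM U87-MG (blue), with filled points at an adjusted p under 0.05. The called genes are Neo1, Smad7, Skil, Hey1 and Nkx2-5 in GCM LN18 and Smad7 and Hey1 in GCM U87-MG.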

How the data were processed

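RNA of primary murine microglia was hybridised to 9 Affymetrix MG-430 PM strip arrays. The deposited values are log2 signals of 45141 probe sets, normalised by the authors. The methods name R and Bioconductor and the submitters' processing notes name limma. The methods name RMA for public array sets, and whether it was used for these arrays is not given in the sources used here. After 104 controls were left out, 28898 probe sets had 1 symbol, 551 had several and 15588 were unnamed, and 28689 were matched to a current symbol.

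The brightest probe set stood for each of 17097 genes. limma 3.58.1 in R 4.3.3 fitted 1 mean per group over all 9 arrays (lmFit, eBayes). P-values were adjusted by Benjamini and Hochberg's method with a threshold of 0.05. The fit was tested on simulated data with independent arrays and no removed replicate means, so that test does not cover the removed means of these data. The correlations of deviations between same-numbered arrays were all below 0 (-0.72 to -0.06), as the removed means force, so they cannot show pairing.

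The members, lists and tests were chosen with earlier results of these data known. All members are named, and of the other pathway genes those called and up to 3 per list with the lowest p. Genes most like a called member were the 3 with the highest Pearson correlation. Alternatives were the block, a trended and robust eBayes prior, a mean log2 signal of at least 5, the mean of a gene's probe sets, adjustment over all probe sets, only the groups compared, quantile normalisation, median centring, array weights and each array left out. Leaving out all arrays of a number was added after seeing the data. Other marker lists were also read. Of 8 oligodendrocyte, 9 neuron and 10 fibroblast markers 0 were called in either medium by limma (before adjustment, 1, 0 and 2 passed 0.05 in GCM LN18 and 2, 3 and 2 in GCM U87-MG). Of 8 border macrophage markers 1 was lower in GCM LN18 (Mrc1, -0.25, adjusted p = 0.0375, 0.182 with the block) and 0 were called by limma in GCM U87-MG (2 before adjustment). Promoter windows are RefSeq's (GRCm38.p6).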

Additional observations from a re-analysis of the deposited data

How the results depend on the processing

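Over 30 member results and 21 alternatives, 577 of 627 values kept their direction and their side of the threshold, 17 kept the direction but no longer passed and 33 changed sign. All 17 belonged to Acvrl1 and Bambi in GCM LN18, the only 2 member results called in the main fit. The other member results had not passed there, so the 577 does not measure how stable the calls are. With the replicate block, calls were 150 in GCM LN18 (894 without it), 8 in GCM U87-MG (259) and 0 between the media (1). The block left 0 of the 10 genes in GCM LN18 (2) and 1 (5) and 0 (2) of the other pathway genes in the LN18 and U87-MG media.

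Leaving out 1 array gave 337 to 856 genes in GCM LN18, 32 to 229 in GCM U87-MG, 0 between the media, 0 to 2 of the 10 in GCM LN18, and 1 to 7 and 0 to 1 other pathway genes in the LN18 and U87-MG media. Without all arrays of number 1, 2 or 3 these were 155, 250 and 119 genes with GCM LN18, 9, 73 and 19 with GCM U87-MG, 0 each time between the media, 1, 0 and 0 of the 10 in GCM LN18, 1, 1 and 0 other pathway genes in GCM LN18 and 0 each time in GCM U87-MG. This last choice was made after seeing the data. With only the 2 groups compared, calls were 45 in GCM U87-MG, 0 between the media, and 3 and 0 other pathway genes in the LN18 and U87-MG media. Array weights gave 153 in GCM U87-MG, 2 between the media and 1 other pathway gene in GCM U87-MG. Between the media, trend and robust estimation and adjustment over probe sets gave 0, and the filter on dim genes and quantile normalisation gave 2. Trend and robust estimation, the filter and adjustment over probe sets each gave 1 other pathway gene in GCM U87-MG.

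Signs changed as follows. Leaving out 1 array, GCM LN18 minus GCM U87-MG ran from -0.19 to 0.52 for Id1, -0.10 to 0.0072 for Id2, -0.50 to 0.46 for Id3, -0.0018 to 0.18 for Bambi and -0.38 to 0.22 for Smad6. Against control, Id2 ran from -0.015 to 0.10 and Smad5 from -0.049 to 0.087 in GCM LN18, and Acvrl1 from -0.10 to 0.080 in GCM U87-MG. Without number 2, Id2 in GCM LN18 was -0.078, Id3 was -0.27 and -0.28 and Smad6 -0.28 and -0.22 in the LN18 and U87-MG media, and Acvrl1 in GCM U87-MG was 0.16. Without number 1, Acvrl1 in GCM U87-MG was 0.0097 and Smad5 in GCM LN18 was -0.095. Id2 between the media was 0.027 without number 1, and Id3 was 0.0084 without number 1 and 0.0054 without number 2. With the mean of probe sets, Id2 between the media was 0.11, Acvrl1 in GCM U87-MG was 0.056 and Smad1 in GCM LN18 was 0.0021. With array weights, Id3 and Smad6 between the media were 0.10 and 0.0085, Acvrl1 in GCM U87-MG was 0.0099 and Smad5 in GCM LN18 was -0.0049. The cause of these changes was not tested, and 0 of these values passed limma's test. The filter on dim genes left out Bmpr1a. The values used hold no detection calls, so how far dim genes such as Bmpr1a lie above background was not analysed here. The block changed no other call among the 10 genes.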
